A study of Mus musculus with 3 samples.

Results

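The complement system of mouse brain was followed here through 9 genes: the recognition molecule C1q (C1qa, C1qb and C1qc), the cleaved components C3 and C4b, the receptors C3ar1, C5ar1 and Itgam, and the regulator Serping1. They were chosen by gene symbol and make up 9 of the 31053 genes of the count matrix. The samples were single-cell suspensions of brain tissue from 10-week-old mice of the strain labelled C56BL6, prepared with droplet barcoding and 3′ chemistry. The 3 samples were 1 control, 1 Ischemic Stroke (IS) and 1 Hemorrhagic Stroke (HS) library. Per the study's methods, ischemia was produced by occlusion of the middle cerebral artery and hemorrhage by collagenase injected into the striatum, and several brains contributed to each condition. The interval between stroke and dissociation was not given in the sources used here. No transgene or deletion was named for these mice.

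Complement is a cascade of plasma and tissue proteins that tags surfaces for removal. C1q binds a target and, through its proteases, starts the cleavage of C4 and C2, which leads to cleavage of C3 and then of C5. The fragments C3a and C5a signal through the receptors C3AR1 and C5AR1, while C3 fragments left on a surface are bound by complement receptor 3, of which ITGAM (CD11b) is the alpha chain. SERPING1, the C1 inhibitor, blocks the proteases of C1. In brain, microglia are the classical source of C1q, and C1q and C3 are known for their part in the removal of synapses.

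The matrix held 35968 barcodes and 247726514 unique molecular identifiers (UMIs, each counting 1 captured transcript). Barcode suffixes 1 to 3 marked the 3 libraries with 10140, 15190 and 10638 barcodes and 72498768, 105957232 and 69270514 UMIs. Nothing in the labels or the matrix paired a suffix with a condition, so that control and stroke cannot be compared, and values by suffix are given side by side without a condition. Barcodes with at least 1000 UMIs and at most 30% mitochondrial UMIs were kept (31982, median 6147 UMIs). A barcode entered a class when it held at least 3 marker genes and 5 marker UMIs of that class and when every other list reached at most 0.25 of that sum. This gate placed 24958 barcodes (78.0% of those kept) in 19 classes, of which the 16 with at least 20 barcodes were ranked. Classes are named after their markers with the ending "-like". Each of the 16 ranked classes had at least 4 markers of its list with a UMI in 25% or more of its barcodes, and no complement gene described here served as a marker. Of 31892 distinct barcode sequences 90 occurred under 2 suffixes, 11 of them in the same class.

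The suffixes stood apart in their makeup. Suffix 3 held 976 of the 995 endothelial-like, 172 of the 197 mural-like and 110 of the 128 border macrophage-like barcodes, whereas it held 17 of the 2413 T cell-like and 1 of the 107 neuron-like barcodes. Microglia-like barcodes numbered 2543, 4214 and 1757 and oligodendrocyte-like barcodes 2303, 3674 and 3826. Shares of barcodes also depend on the tissue taken, the dissociation and the gate, and cell numbers were not compared. Levels are CPM, a gene's UMIs summed over a class per 1000000 UMIs of that class. Brackets give exact Poisson 95% intervals for CPM and exact Clopper-Pearson 95% intervals for shares of barcodes, both of which cover counting error only. With 1 matrix and no labelled replicates, no test was made.

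The C1q genes form a cluster of 18.68 kb on chromosome 4 of the mouse genome (GRCm38, 136880129 to 136898803, minus strand), with C1qb, C1qc and C1qa in that order. Itgam lies on chromosome 7 (128062640 to 128118491, plus strand). The 250 bases before the RefSeq start of C1qb, C1qc and Itgam are printed because they hold the hexamer GAGGAA or its reverse complement TTCCTC (both strands searched), the core bound by the myeloid factor PU.1. Capitals mark the matches. The windows are chr4:136886201-136886450 (C1qb, minus strand), chr4:136892915-136893164 (C1qc, minus strand) and chr7:128062390-128062639 (Itgam, plus strand), from RefSeq on GRCm38.p6.
C1qb: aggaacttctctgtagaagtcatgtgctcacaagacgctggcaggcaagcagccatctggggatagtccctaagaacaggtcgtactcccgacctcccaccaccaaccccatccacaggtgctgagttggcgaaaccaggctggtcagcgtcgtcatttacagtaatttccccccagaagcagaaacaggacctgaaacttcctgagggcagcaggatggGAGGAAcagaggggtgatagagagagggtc
C1qc: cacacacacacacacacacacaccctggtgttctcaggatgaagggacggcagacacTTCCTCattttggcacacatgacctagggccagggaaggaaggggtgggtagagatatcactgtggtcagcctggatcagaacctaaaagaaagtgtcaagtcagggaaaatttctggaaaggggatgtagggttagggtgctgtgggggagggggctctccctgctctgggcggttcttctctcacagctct
Itgam: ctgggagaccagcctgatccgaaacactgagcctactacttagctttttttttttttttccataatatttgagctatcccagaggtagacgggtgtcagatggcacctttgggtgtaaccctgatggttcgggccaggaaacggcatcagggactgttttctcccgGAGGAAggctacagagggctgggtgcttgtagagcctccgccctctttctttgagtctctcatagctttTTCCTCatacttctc

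The first base of the match lay 30 bases before the start in C1qb and 193 in C1qc, and the 2 matches of Itgam began 84 and 15 bases before it. Of the 9 members, 6 had a promoter in the RefSeq table, and the windows of C3, C3ar1 and C5ar1 held neither form. Among all 32851 promoter windows of this length 23.3% held the hexamer. A match is a description of the letters and not of binding.

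**Figure D1:**
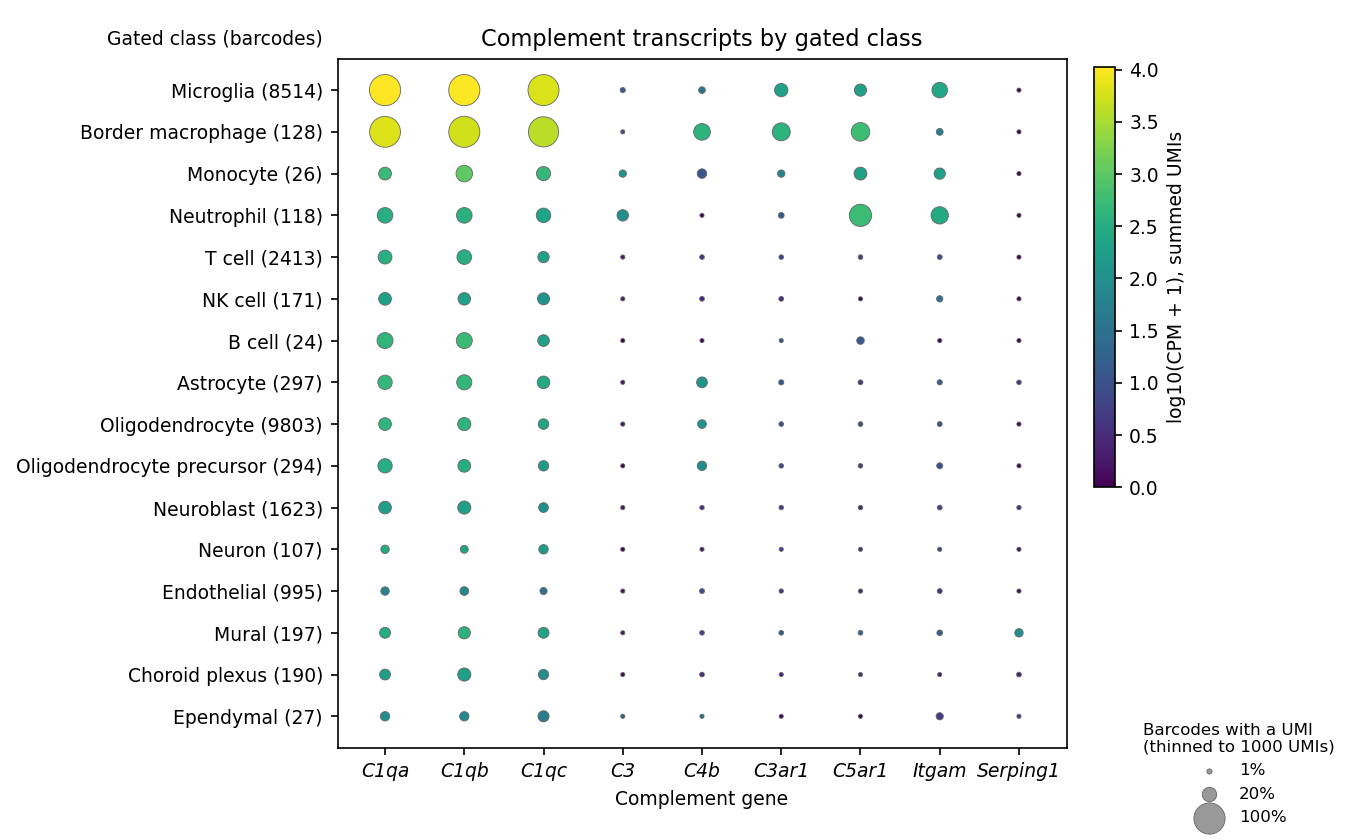
Dot plot of the 9 complement genes (columns) in the 16 ranked classes (rows, barcodes in brackets), with colour giving log10(CPM + 1) of summed UMIs and dot area the share of barcodes with a UMI after thinning each barcode to 1000 UMIs. C1q fills the microglia-like and border macrophage-like rows. C4b is highest in the border macrophage-like row, followed by the astrocyte-like, oligodendrocyte-like and precursor-like rows. C5ar1 and Itgam are high in the neutrophil-like and microglia-like rows, C5ar1 also in the border macrophage-like row, and Serping1 is highest in the mural-like row.

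The members were divided among 5 classes by where their level was highest. Microglia-like barcodes held the highest level of 3 members (C1qa, C1qb and C1qc), against 2.41% of the 14260 genes that reached 10 CPM in some class. Border macrophage-like barcodes, the macrophages of vessels and meninges, held that of 3 others (C4b, C3ar1 and C5ar1, background 3.11%). That class rested on suffix 3: without it fewer than 20 barcodes remained, and C4b was highest in oligodendrocyte-like, C3ar1 in microglia-like and C5ar1 in neutrophil-like barcodes. C3 was highest in monocyte-like (background 1.96%), Itgam in neutrophil-like (5.5%) and Serping1 in mural-like barcodes (5.69%), the contractile cells of vessel walls. The 14260 background genes can include some that reached 10 CPM on few UMIs of a small class. Microglia-like barcodes were compared with all other gated barcodes together by the log2 ratio of CPM, with nothing added to either level. They were higher by 4.76 for C1qa, 4.70 for C1qb, 4.82 for C1qc, 4.53 for Itgam, 4.15 for C3ar1 and 3.77 for C5ar1. C3 was higher by 2.86, at 12.7 against 1.75 CPM. The same difference was -1.02 for C4b and -4.25 for Serping1, the latter at 0.108 against 2.05 CPM.

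C1q, the recognition molecule of the classical pathway, was a transcript of microglia-like and border macrophage-like barcodes. The C1qa level in microglia-like barcodes was 10589 CPM [10566–10612], and 94.7% of all gated C1qa UMIs lay in this class. Across suffixes 1, 2 and 3 it was 10178, 11273 and 9243 CPM, the C1qb level 9429, 10248 and 9701 CPM, and the C1qc level 6000, 6414 and 5867 CPM. For each chain the level of suffix 2 was the highest, and all 9 values were far above those of any non-myeloid class. A microglia-like barcode held a median of 63, 71 and 60 C1qa UMIs by suffix. After each barcode had been thinned to 1000 UMIs, 99.8% still held a C1qa UMI.

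Border macrophage-like barcodes followed with 6424 CPM [6256–6595] of C1qa, 5332 CPM [5179–5488] of C1qb and 4038 CPM [3905–4174] of C1qc, below the microglia-like level for every chain. The makeup of the C1q UMIs, not divided by transcript length, was alike in both: C1qa, C1qb and C1qc took 39.7%, 37.1% and 23.2% in microglia-like and 40.7%, 33.8% and 25.6% in border macrophage-like barcodes. Monocyte-like barcodes (26) came next, with 526 CPM of C1qa, 1060 CPM of C1qb and 481 CPM of C1qc, and C1qb made up 51.3% of their C1q UMIs. These values rest on few barcodes: 1 barcode held 153 of the 401 C1qb UMIs, and 1 held 64 of the 199 C1qa UMIs. The C1qa interval overlapped that of astrocyte-like barcodes.

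Every other class also held C1q UMIs. The C1qa level fell from 476 CPM [439–515] in astrocyte-like and 418 CPM [413–423] in oligodendrocyte-like to 354 CPM [344–364] in T cell-like and 62.8 CPM [57.8–68.2] in endothelial-like barcodes. A single astrocyte-like barcode held 248 of that class's 610 C1qa UMIs. Over 12 settings the level ran from 188 to 1007 CPM in astrocyte-like, from 177 to 637 CPM in oligodendrocyte-like and from 175 to 615 CPM in T cell-like barcodes, so these 3 classes have no fixed order, whereas microglia-like barcodes stayed between 9857 and 10857 CPM. T cells should lack C1q, and 58.3% [56.3–60.3] of T cell-like barcodes (median 4761 UMIs) held a C1qa UMI, as did 45.5% [44.5–46.4] of oligodendrocyte-like (median 6203 UMIs) and 38.0% [32.5–43.8] of astrocyte-like barcodes (median 3086 UMIs). After thinning to 1000 UMIs the shares were 18.4% in T cell-like, 15.2% in oligodendrocyte-like and 19.9% in astrocyte-like barcodes.

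To set these levels against free microglial RNA, the C1q UMIs expected in a class were computed from its UMIs of Trem2, Ly86 and Fcrls, 3 microglial genes, within each suffix. Outside the oligodendrocyte lineage an oligodendrocyte term from Mbp, Mobp and Trf was added. In the 12 ranked classes without myeloid cells the ratio of observed to expected C1q UMIs ranged from 0.431 to 1.201 over 36 pairs of chain and class, with a median of 0.894. With Csf1r and Cx3cr1 as tracers instead, the 24 B cell-like barcodes held 45 C1qb UMIs against 12.8 expected, a ratio of 3.50, the highest of these C1q ratios under the settings tried. Oligodendrocyte-like barcodes held 28181 C1qa UMIs against 27568 expected (ratio 1.022 [1.0103–1.034]), and T cell-like barcodes 4714 against 5215 (0.904 [0.878–0.9301]). The chains differed beyond counting error. In oligodendrocyte-like barcodes the ratio was 1.075 [1.063–1.088] for C1qb and 0.969 [0.954–0.985] for C1qc. In T cell-like barcodes it was 0.981 [0.953–1.009] and 0.835 [0.802–0.868]. Leaving out the barcodes called doublets, 4.34% of the oligodendrocyte-like class, lowered its C1qa UMIs to 11036 against 12128 expected (ratio 0.910) and its level to 177 CPM. The T cell-like class then held 3166 against 3681 expected and the astrocyte-like class 220 against 285. Observed and expected UMIs fell together, so this ratio cannot tell apart free microglial RNA and microglial RNA from doublets. The level moved with the tracers by suffix as well: oligodendrocyte-like barcodes held 478, 703 and 127 CPM of C1qa in suffixes 1, 2 and 3 and 306, 411 and 65.5 CPM of the microglial tracers. Border macrophage-like barcodes exceeded the estimate 1.63-fold for C1qa, 1.31-fold for C1qb and 1.63-fold for C1qc, a ratio that also depends on how far these macrophages transcribe the tracer genes themselves. Monocyte-like barcodes lay below the estimate for each chain, with 199 C1qa UMIs against 714 expected, 401 C1qb against 669 and 182 C1qc against 418. Their tracer level was 1134 CPM, against 232 CPM in T cell-like barcodes. Whether monocyte-like cells transcribe the tracer genes themselves was not tested, so the expected numbers may exceed those of free RNA.

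**Figure D2:**
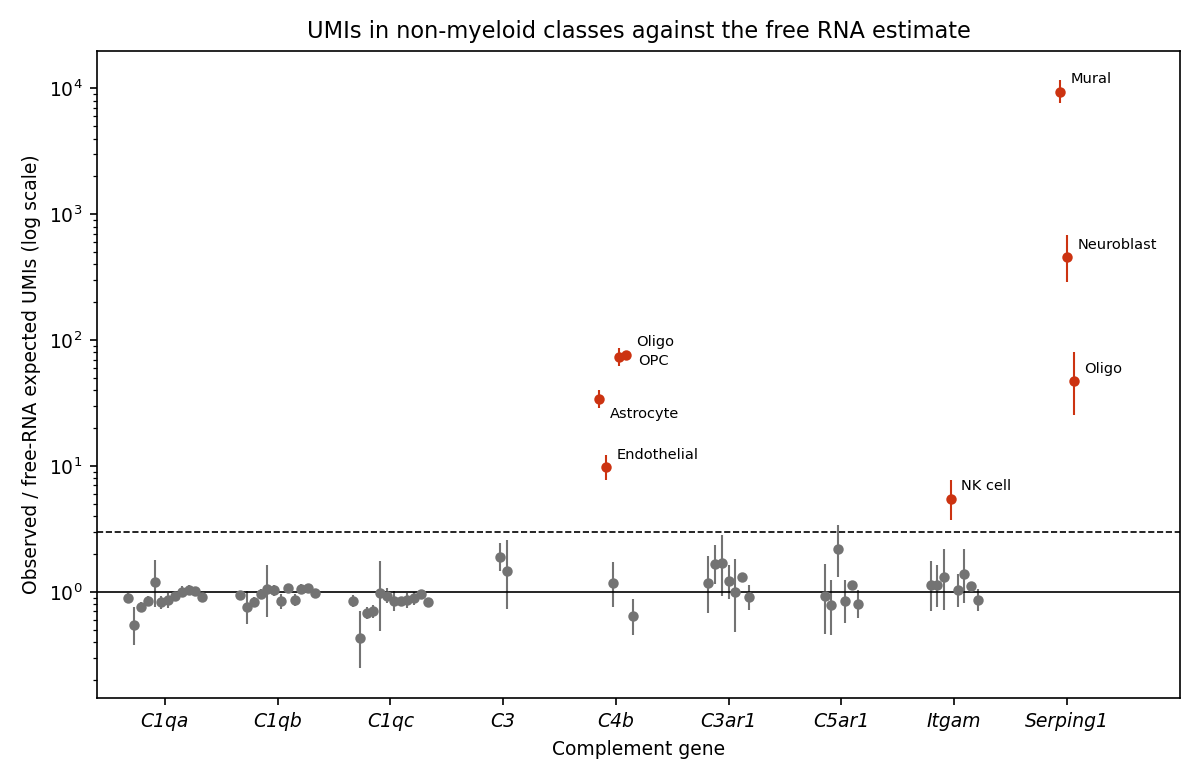
Observed UMIs divided by those expected from free microglial and oligodendrocyte RNA (vertical axis, log scale) for each complement gene and each of the 12 non-myeloid classes with at least 10 UMIs, bars being exact Poisson 95% intervals. The solid line marks a ratio of 1, the dashed line the threshold of 3, and the 8 pairs past it, none of them a C1q chain, are red and named by class. In oligodendrocyte-like and oligodendrocyte precursor-like barcodes the expectation holds the microglial term alone.

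Of the 108 pairs of a member and a non-myeloid class, 68 held at least 10 UMIs, and 8 of these exceeded the free RNA estimate at least 3-fold. The share of all genes past this cut was not computed, so the count of 8 cannot be read as few or many. C4b gave 4 of them (oligodendrocyte-like, oligodendrocyte precursor-like, astrocyte-like and endothelial-like), Serping1 gave 3 (mural-like, neuroblast-like and oligodendrocyte-like), and Itgam gave 1 (NK cell-like). In the oligodendrocyte-like and precursor-like classes the expectation had no oligodendrocyte term, so the C4b ratio of the precursor-like class does not cover C4b in free oligodendrocyte RNA. None involved C1q, C3, C3ar1 or C5ar1. For C3, only oligodendrocyte-like and T cell-like barcodes held the 10 UMIs needed to count. Below that number C3 exceeded the estimate more than 3-fold in endothelial-like (6 UMIs against 0.0541 expected) and ependymal-like barcodes (5 against 0.0224). It also did so in neuroblast-like (8 against 2.45) and mural-like barcodes (1 against 0.270), and not in the remaining classes.

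C4b, the mouse C4 whose cleavage follows C1 activation, gave more of the pairs past the free RNA cut than any other member. Border macrophage-like barcodes stood highest at 395 CPM [354–439], with a C4b UMI in 63.3% [54.3–71.6] of them. Astrocyte-like (119 CPM [101–140]), oligodendrocyte-like (103 CPM [101–106]) and oligodendrocyte precursor-like barcodes (89.0 CPM [75.6–104]) followed, and the intervals of neighbours in this order overlapped. Microglia-like barcodes held 34.2 CPM [32.9–35.6], T cell-like barcodes 2.78 CPM [1.95–3.83], and the 118 neutrophil-like barcodes none, which allows up to 7.74 CPM. A C4b UMI was found in 17.7% [17.0–18.5] of oligodendrocyte-like, 25.9% [21.0–31.3] of astrocyte-like and 24.8% [20–30.2] of precursor-like barcodes, against 1.49% [1.05–2.06] of T cell-like barcodes. After thinning to 1000 UMIs these shares were 6.15%, 10.4%, 7.48% and 0.497%. Since the oligodendrocyte-like class was large, it held 67.5% of the gated C4b UMIs, and microglia-like barcodes held 24.6%.

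Against the free RNA estimate, oligodendrocyte-like barcodes held 6975 C4b UMIs with 90.7 expected, astrocyte-like barcodes 153 with 4.48, precursor-like barcodes 157 with 2.13 and endothelial-like barcodes 73 with 7.45. The C4b UMIs of microglia-like barcodes (2538) were compared with the number that free oligodendrocyte RNA would give (491), a ratio of 5.16 [4.97–5.37], and the ratio was 7.001, 4.21 and 6.57 in suffixes 1, 2 and 3. C4b is uncertain in one respect. A near-identical copy, C4a, lies beside it on chromosome 17 (C4b 34728380 to 34743882, C4a 34809092 to 34823464, both on the minus strand) and has no row in the matrix, so that the treatment of reads that fit both copies was not checked.

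The C4b level differed between suffixes in the oligodendrocyte lineage more than in astrocyte-like barcodes. Oligodendrocyte-like barcodes held 131 [126–136], 177 [172–183] and 20.1 [18.4–21.9] CPM in suffixes 1, 2 and 3, and precursor-like barcodes 97.7 [78.8–120], 113 [86.6–145] and 7.6 CPM [0.921–27.5]. Astrocyte-like barcodes held 168 [116–235], 109 [76.2–152] and 111 CPM [88.2–137], with intervals that overlapped. Microglia-like barcodes held 43.6, 35.0 and 14.0 CPM. Suffix 3 was the lowest in the oligodendrocyte-like, precursor-like and microglia-like classes. In the absence of a map from suffixes to conditions, library and condition cannot be told apart.

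Within the oligodendrocyte-like class C4b was concentrated in few barcodes. The tenth of barcodes with the most C4b held 74.5% of its UMIs in suffix 1 and 91.0% in suffix 2, and the highest single barcode held 39 and 51 UMIs. In suffix 3 the share was 100%, since only 9.96% of barcodes held a C4b UMI. By suffix the same share was 78.4%, 78.8% and 100% in microglia-like and 61.8%, 65.7% and 65.5% in astrocyte-like barcodes, so it is not particular to this class. Oligodendrocyte-like barcodes with at least 2 UMIs of Serpina3n, a secreted protease inhibitor induced in injured glia, numbered 348 (114, 214 and 20 by suffix, median 9428 UMIs), against 9092 without it (median 6087 UMIs). The C4b level was 1049 CPM [1016–1083] with Serpina3n and 40.8 CPM [39.2–42.4] without, a difference of 4.38 on the log2(CPM + 10) scale. In suffix 1 the levels were 732 and 71.7 CPM, in suffix 2 they were 1366 and 43.0 CPM, and in suffix 3 they were 18.8 [6.10–43.8] and 20.2 CPM. On the log2(CPM + 10) scale the difference was 3.18 and 4.70 in suffixes 1 and 2, and -0.07 [-0.99 to 0.92] in suffix 3, with 20 positive barcodes, an interval that lay below both other values. Leaving out barcodes called doublets gave 1105 against 40.2 CPM.

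Klk6, a protease of mature oligodendrocytes, split the class in a similar direction. C4b stood at 291 CPM [282–300] in the 1335 barcodes with at least 2 Klk6 UMIs and at 49.3 CPM [47.3–51.3] in the 7751 without. By suffix the levels were 244 and 86.9 CPM, 614 and 55.2 CPM, and 22.7 [18.7–27.2] and 20.1 CPM [18.1–22.2]. Suffix 3 again held no gap beyond counting error, here with 439 positive barcodes. The splitting genes were chosen with earlier results of these data known, and their barcodes were deeper, so that these levels are a description. No astrocyte-like barcode held 2 Serpina3n UMIs, and 7 held 1.

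**Figure D3:**
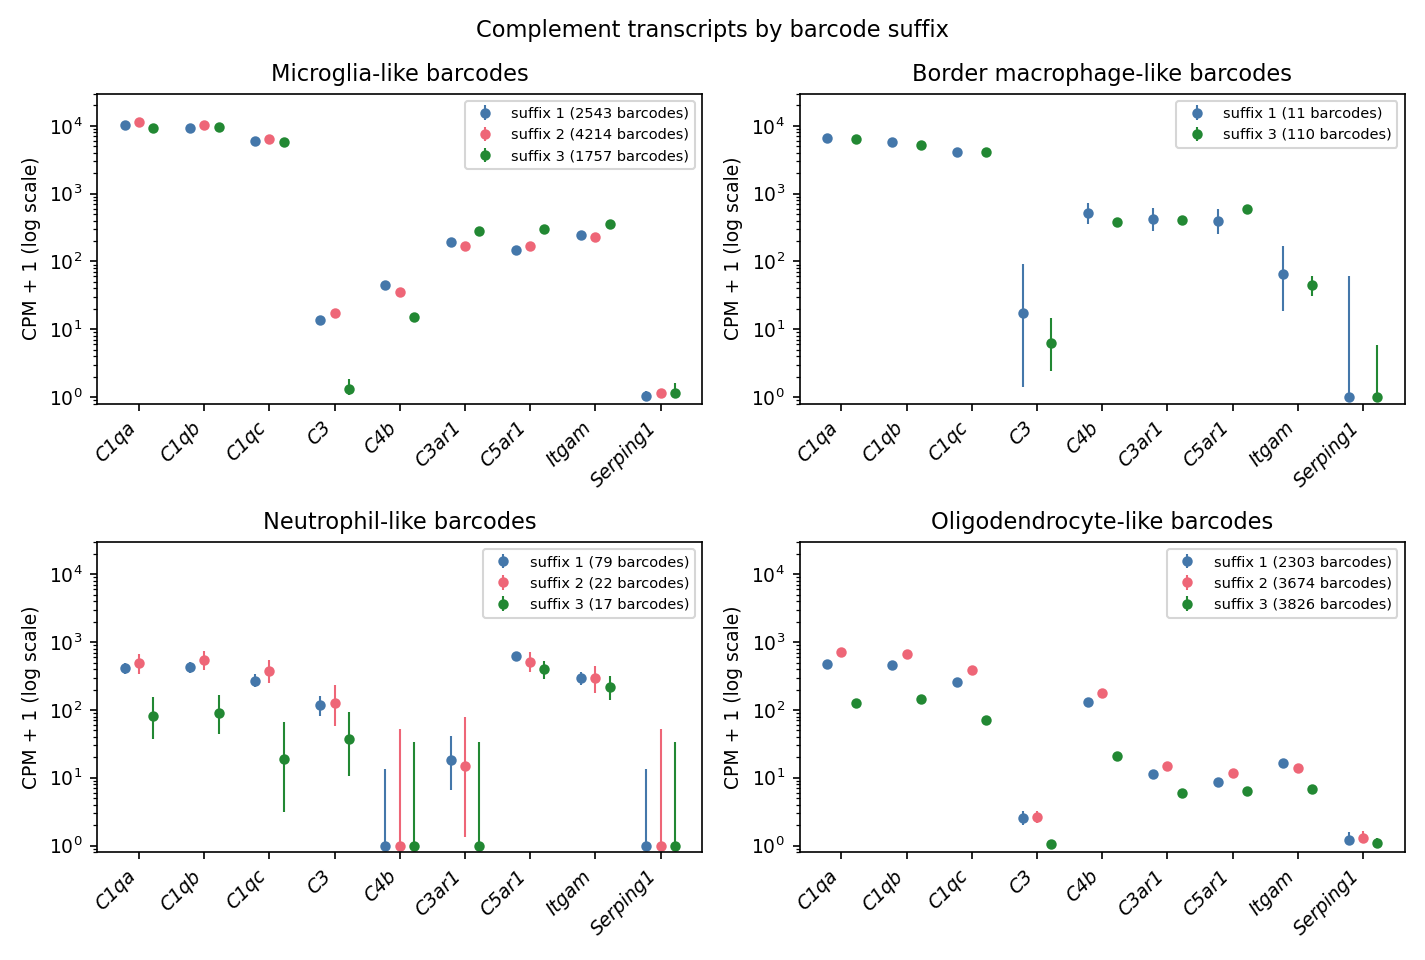
CPM + 1 (log scale) of the 9 complement genes by barcode suffix in microglia-like, border macrophage-like, neutrophil-like and oligodendrocyte-like barcodes, with exact Poisson 95% intervals for classes of at least 10 barcodes in a suffix. C3 of microglia-like barcodes (12.9, 16.5 and 0.325 CPM) and C4b of oligodendrocyte-like barcodes (131, 177 and 20.1 CPM) were low in suffix 3, while C3ar1, C5ar1 and Itgam of microglia-like barcodes were highest there.

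C3, the component on which all complement routes converge, was a low transcript in these barcodes. Its level was 119 CPM [86.8–159] in monocyte-like and 98.6 CPM [72.5–131] in neutrophil-like barcodes, 2 values whose intervals overlapped. The monocyte-like value rested on 45 UMIs, of which 39 came from the 10 barcodes of suffix 3, and leaving out any 1 suffix left fewer than 20 monocyte-like barcodes, with neutrophil-like barcodes then highest. Neutrophil-like barcodes held 116, 124 and 35.9 CPM in suffixes 1, 2 and 3. A C3 UMI was found in 25.4% [17.9–34.3] of neutrophil-like barcodes (median 3348 UMIs), against 0.414% [0.199–0.761] of T cell-like barcodes, and after thinning in 11.9% and 0.0829%. Ependymal-like barcodes ranked next by level at 20.2 CPM, from 5 UMIs in 27 barcodes, with an interval that overlapped that of microglia-like barcodes.

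Microglia-like barcodes held 12.7 CPM [11.9–13.5] of C3, and because of their number they held 82.8% of the gated C3 UMIs. The level was 12.9 CPM [11.5–14.5] in suffix 1, 16.5 CPM [15.3–17.8] in suffix 2 and 0.325 CPM [0.0886–0.833] in suffix 3, where 1757 barcodes held 4 UMIs. A C3 UMI occurred in 9.91%, 11.5% and 0.171% of these barcodes. Astrocyte-like barcodes held 1 C3 UMI in 297 barcodes (0.780 CPM [0.0197–4.35]), and the 294 precursor-like barcodes held none, which allows up to 2.09 CPM. Both classes lay at or below the level of T cell-like barcodes, which held 0.825 CPM [0.412–1.48].

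Among the receptors, C3ar1, which binds C3a, was highest in border macrophage-like barcodes (401 CPM [360–445], UMI in 75.8% [67.4–82.9]). Microglia-like barcodes held 194 CPM [191–198], with a UMI in 65.0% [64.0–66.0], and 92.1% of the gated C3ar1 UMIs. Monocyte-like barcodes held 63.5 CPM [40.7–94.4] and neutrophil-like barcodes 12.6 CPM [4.62–27.4]. T cell-like barcodes held 5.70 CPM, with a UMI in 2.28% [1.72–2.96], and their 76 UMIs compared with 83.7 expected from free RNA. In microglia-like barcodes the level was 192, 168 and 282 CPM by suffix, highest in suffix 3.

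C5ar1, the receptor for C5a that draws phagocytes to injury, was shared by border macrophage-like (577 CPM [527–630]) and neutrophil-like barcodes (552 CPM [487–623]), whose intervals overlapped and whose order turned after thinning. A UMI was present in 80.5% [72.2–87.2] of neutrophil-like and 73.4% [64.9–80.9] of border macrophage-like barcodes, and after thinning in 50% and 34.4%. Monocyte-like (193 CPM [151–243]) and microglia-like barcodes (183 CPM [180–186]) followed, again with overlapping intervals, and T cell-like barcodes held 4.65 CPM. Neutrophil-like barcodes held 622 [535–719], 512 [360–705] and 395 CPM [287–530] by suffix. Microglia-like barcodes held 147, 168 and 301 CPM, so that suffix 3 was the lowest in the former and the highest in the latter.

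The 2 receptors were combined differently by class. Of 8514 microglia-like barcodes 40.0% held both C3ar1 and C5ar1, 24.9% C3ar1 alone, 12.9% C5ar1 alone and 22.1% neither. In border macrophage-like barcodes 64.8% held both. In neutrophil-like barcodes 76.3% held C5ar1 alone, 4.24% both and 0.847% C3ar1 alone. A shallow barcode can miss a receptor. After thinning to 1000 UMIs, C5ar1 alone was found in 49.2% of neutrophil-like, 10.8% of microglia-like and 22.7% of border macrophage-like barcodes, and both receptors in 0.847%, 3.03% and 11.7%.

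Itgam, which pairs with Itgb2 as complement receptor 3, was highest in neutrophil-like (275 CPM [230–326]) and microglia-like barcodes (254 CPM [251–258]), whose intervals overlapped and whose order turned when suffix 1 or suffix 2 was left out. It was detected in 60.2% [50.7–69.1] and 75.9% [74.9–76.8] of them, at median depths of 3348 and 7403.5 UMIs, and after thinning in 29.7% and 23.6%. Monocyte-like barcodes held 172 CPM [133–219]. Border macrophage-like barcodes, highest for both anaphylatoxin receptors, held 49.8 CPM [36.0–67.1], and their 43 Itgam UMIs were fewer than the 124 that the microglial tracers predicted. NK cell-like barcodes held 29.4 CPM [20–41.8], from 31 UMIs against 5.64 expected from free RNA, and 15.8% [10.7–22.1] of them held a UMI against 3.36% [2.67–4.16] of T cell-like barcodes. The level of NK cell-like barcodes was 26.5 CPM in suffix 1 and 31.0 CPM in suffix 2, and suffix 3 had 3 such barcodes. In microglia-like barcodes Itgam stood at 245, 228 and 356 CPM by suffix.

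Serping1, the C1 inhibitor, was rare: 238 UMIs lay in gated barcodes. Mural-like barcodes held 89 of them (92.7 CPM [74.4–114], UMI in 25.4% [19.5–32.1]). The level was 135 CPM [83.7–207] in the 23 barcodes of suffix 2 and 85.5 CPM [66.4–108] in the 172 of suffix 3, and suffix 1 had 2 mural-like barcodes. The fibroblast-like class, too small to be ranked with 19 barcodes (15 of them in suffix 3), held 90 UMIs, a level of 857 CPM [689–1054] and 37.8% of the gated Serping1 UMIs. Mural-like barcodes held a further 37.4% of these UMIs. Microglia-like barcodes, where C1q was highest, held 8 UMIs in 8514 barcodes (0.108 CPM [0.0466–0.213]). T cell-like barcodes held 0 UMIs, which allows up to 0.225 CPM and a UMI in up to 0.124% of barcodes.

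Neuroblast-like barcodes held 23 Serping1 UMIs (2.27 CPM [1.44–3.40], UMI in 1.42% [0.9–2.12]), which were 9, 7 and 7 by suffix, against 0.0501 expected from microglial and oligodendrocyte RNA. Oligodendrocyte-like barcodes held 13 UMIs (0.193 CPM) against 0.274 expected. The estimate did not cover free RNA of mural-like or fibroblast-like cells, whose part in these low counts was not tested. Endothelial-like barcodes, mostly of suffix 3 like the mural-like ones, held 4 Serping1 UMIs (0.444 CPM [0.121–1.14]).

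Members also varied within the microglia-like class. Barcodes with at least 2 UMIs of Cst7, a cystatin induced in reactive microglia, numbered 3650 (1183, 2459 and 8 by suffix), and 4077 held none. On the log2(CPM + 10) scale the Cst7-positive barcodes were higher by 0.48 for C1qa, 0.27 for C1qb and 0.31 for C1qc. Within suffixes 1 and 2 these differences were 0.56 and 0.56 for C1qa, 0.38 and 0.39 for C1qb, and 0.43 and 0.41 for C1qc. C3 stood at 19.1 CPM [17.8–20.4] with Cst7 and 2.17 CPM [1.63–2.84] without, and C4b at 42.8 CPM [40.9–44.7] and 18.3 CPM [16.6–20.1]. Itgam moved the other way, from 344 CPM [337–351] without Cst7 to 201 CPM [197–205] with it. The Itgam difference of -0.75 was -0.68 within suffix 1 and -0.72 within suffix 2.

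The receptor differences depended on the suffixes pooled. C3ar1 differed by -0.40 over all barcodes but by -0.09 (-0.21 to 0.04) in suffix 1 and -0.08 (-0.20 to 0.04) in suffix 2. C5ar1 differed by -0.33 pooled, yet by 0.11 (-0.03 to 0.26) in suffix 1 and 0.44 (0.32 to 0.57) in suffix 2. Suffix 3, which held the highest C5ar1 level, had 8 Cst7-positive barcodes, so that its barcodes entered only the negative stratum in number. For C3 the within-suffix differences were 0.96 and 1.11, and for C4b they were 0.59 and 0.90. The positive stratum was deeper, with a median of 11574.5 UMIs against 5676.

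Dividing microglia-like barcodes, with at least 2 UMIs of Mki67 and Top2a together, numbered 139. They held 158 CPM [142–174] of Itgam against 258 CPM [254–262] in the 8079 barcodes without either gene, a difference of -0.68. Of the dividing barcodes 39, 92 and 8 lay in suffixes 1, 2 and 3, and the Itgam difference was -0.55 within suffix 1 and -0.56 within suffix 2. The dividing barcodes were deeper, with a median of 15073 UMIs against 7266. Pooled over suffixes, C1qa, C1qb and C1qc differed by -0.01, -0.06 and 0.06. Between single microglia-like barcodes the C1q chains went together, with Pearson correlations after thinning to 1000 UMIs of 0.432 for C1qa and C1qb, 0.379 for C1qa and C1qc and 0.331 for C1qb and C1qc. Those between a C1q chain and C3ar1, C5ar1 or Itgam lay between -0.05 and 0.0049. These values are a description over 8514 barcodes that share their libraries.

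**Figure D4:**
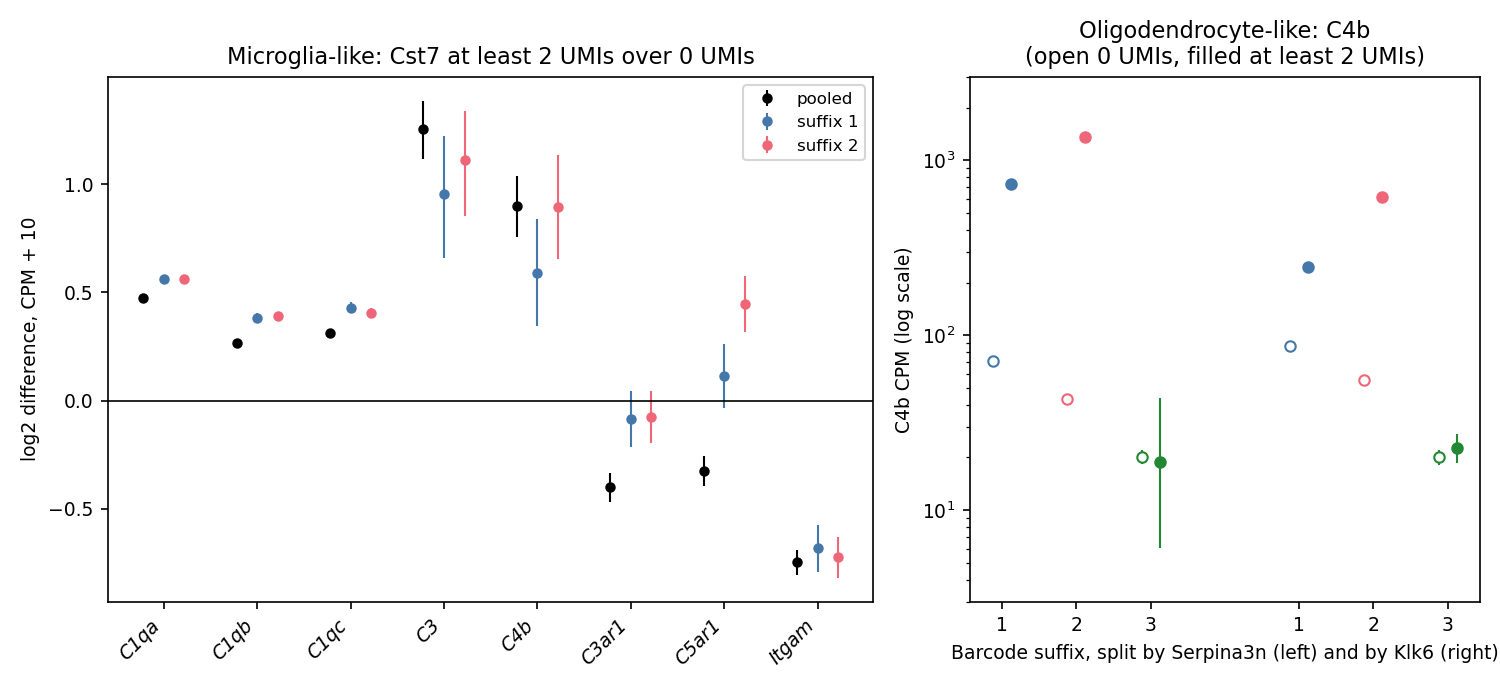
Left, difference in log2(CPM + 10) between microglia-like barcodes with at least 2 and with 0 Cst7 UMIs for 8 complement genes, pooled (black) and within suffixes 1 and 2; right, C4b CPM (log scale) of oligodendrocyte-like barcodes with 0 (open) and at least 2 (filled) UMIs of Serpina3n or Klk6 by suffix, bars being 95% counting intervals. C5ar1 changes sign between the pooled value (-0.33) and suffix 2 (0.44), and the C4b gap of suffixes 1 and 2 is not seen in suffix 3.

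The genes whose pattern over the 16 classes was most like that of a member were ranked by Pearson's r of log2(CPM + 10) over 14260 genes. The C1q chains were most like one another (C1qa and C1qc 0.993, C1qb and C1qc 0.993, C1qa and C1qb 0.986), followed by Fcrls for C1qa (0.988) and C1qc (0.982) and by Aif1 for C1qb (0.965). C3 was most like Hp (0.965), itself a marker of the monocyte gate, then Krt80 and AI839979. C4b was most like P2rx7 (0.889), Ctns (0.887) and Hs1bp3 (0.859), the lowest likeness among the members. C3ar1 went with Tlr7 (0.976), Fcgr2b and Tbxas1, C5ar1 with Lst1 (0.982), Slc11a1 and Clec4a2, Itgam with Milr1 (0.964), Clec5a and I830077J02Rik, and Serping1 with Pla2r1 (0.988), Omd and Chmp4c. The 16 points share libraries and free RNA, and no p is given.

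The other complement genes were read from lists of proteases, recognition molecules, terminal components, receptors and regulators, 43 genes of which 28 reached 10 CPM in a ranked class. Over the whole matrix 14260 of 31053 genes reached that level, the background for this count and for those of each list. Small classes make this a low bar: in the 24 B cell-like barcodes 1 UMI already gave 12.1 CPM. Both counts can therefore hold genes that passed on few UMIs. Of 8 proteases 4 did so. The C1 proteases C1ra and C1s1 were highest in mural-like barcodes (14.6 CPM [7.97–24.5] and 36.5 CPM [25.4–50.7]), the ranked class with the highest Serping1, and not in the C1q-rich classes, where microglia-like barcodes held 1.32 and 0.0135 CPM. The mural-like C1ra level rested on 14 UMIs, and the far larger microglia-like class held 98 of the 186 C1ra UMIs of the ranked classes. C2, cleaved together with C4, was highest in border macrophage-like barcodes (45.2 CPM [32.1–61.7]), and the lectin pathway protease Masp1 in precursor-like barcodes (31.2 CPM [23.5–40.6]). Cfb, which drives the alternative pathway, stayed below 10 CPM in each ranked class.

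Of 6 other recognition genes in the matrix 5 passed, Colec11 on 3 UMIs in ependymal-like and Fcnb on 6 UMIs in monocyte-like barcodes. The ficolin Fcna had 129 of its 167 gated UMIs in border macrophage-like barcodes (149 CPM [125–177]). The scavenger collectin Colec12 was highest in mural-like barcodes (145 CPM [122–171]), and properdin (Cfp) stood at 153 CPM in both monocyte-like and border macrophage-like barcodes. Of 7 terminal components only Hc, which encodes C5, passed, with 12 UMIs in ependymal-like barcodes (48.5 CPM [25.1–84.7]). That class had 27 barcodes, of which 18.5% were called doublets. C7, C8a, C8b and C9 had 0 UMIs in gated barcodes.

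All 7 other receptors passed, Cr2 on 4 UMIs in B cell-like barcodes (48.3 CPM [13.2–124]). C5ar2, the second C5a receptor, was highest in border macrophage-like (34.7 CPM) and neutrophil-like barcodes (33.6 CPM), as was C5ar1. Itgb2, the partner chain of Itgam, stood at 237 CPM [195–285] in neutrophil-like, 233 CPM in monocyte-like and 131 CPM in microglia-like barcodes. Itgax, the alpha chain of complement receptor 4, was highest in NK cell-like barcodes (73.1 CPM [57.7–91.4]). Vsig4, a macrophage receptor for C3 fragments, had all of its 11 gated UMIs in border macrophage-like barcodes, of which only 2.34% held one. Cd93 was highest in endothelial-like barcodes (375 CPM [363–388]) and Lrp1 in precursor-like barcodes (548 CPM [514–583]).

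Of 15 other regulators 11 passed, and their highest levels lay in 9 classes. The membrane regulator Cd59a, which blocks the terminal pore, was highest in choroid plexus-like (266 CPM [249–284]) and endothelial-like barcodes (172 CPM), and microglia-like barcodes held 1.63 CPM. Clusterin (Clu) was highest in astrocyte-like barcodes (4436 CPM [4322–4553]) and vitronectin (Vtn) in mural-like barcodes (9886 CPM [9688–10087]), both of which bind terminal complexes. Csmd1 (98.6 CPM) and Susd4 (73.7 CPM), membrane regulators with complement control modules, were highest in precursor-like barcodes, Sez6 in neuroblast-like (90.6 CPM) and Sez6l2 in oligodendrocyte-like barcodes (599 CPM).

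**Figure D5:**
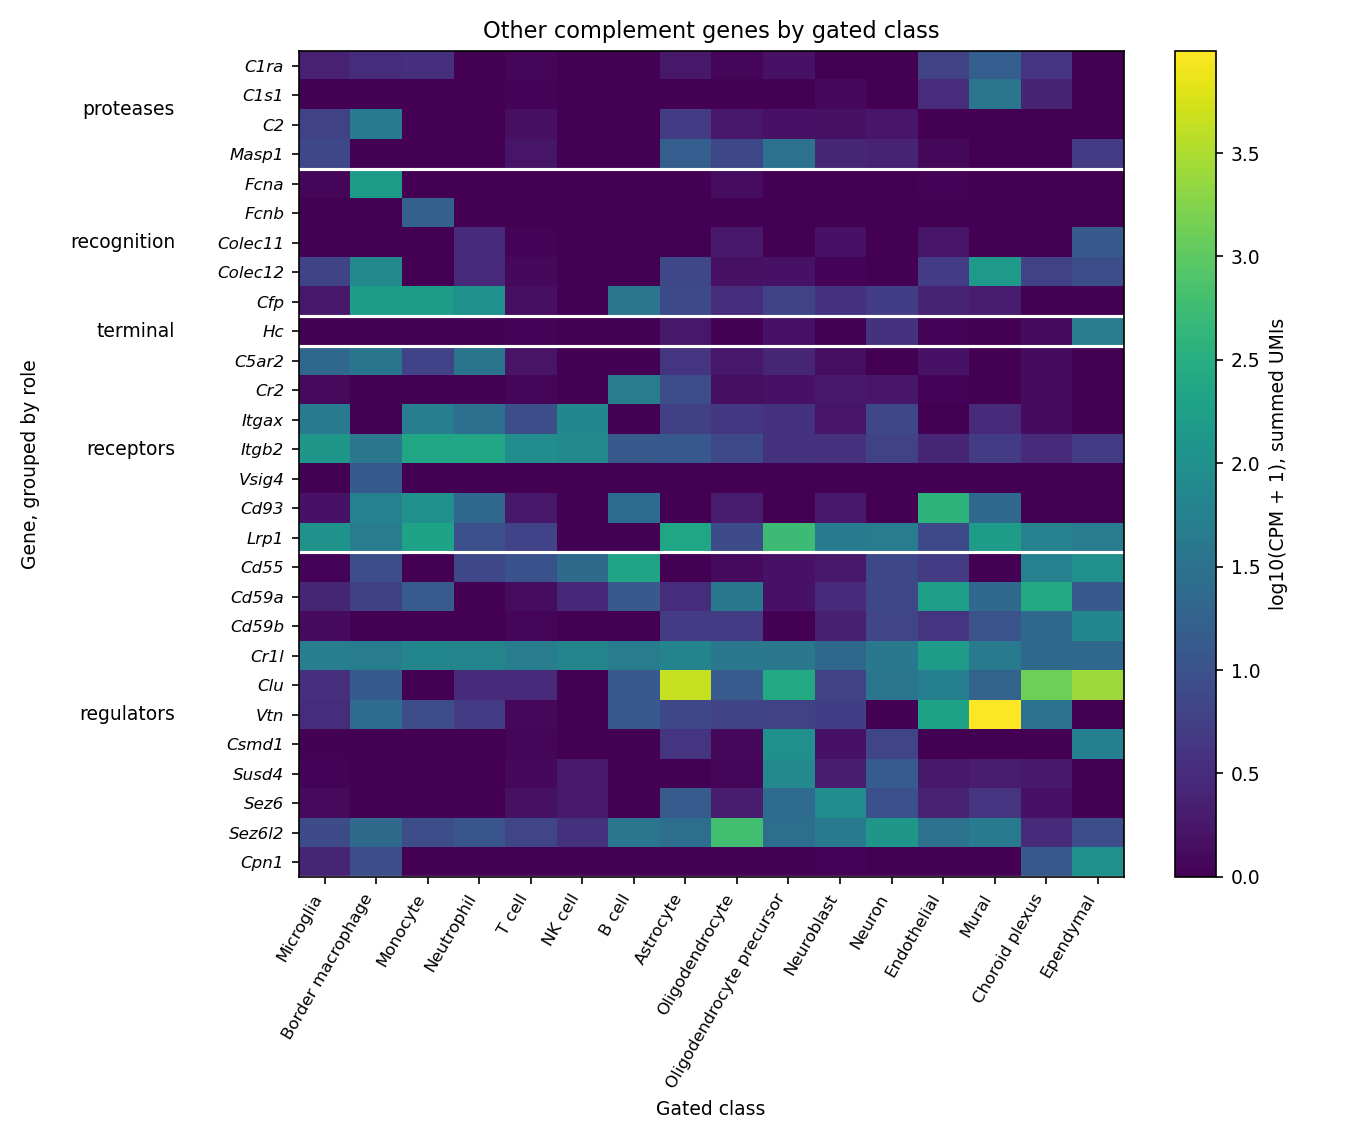
Heat map of log10(CPM + 1) of summed UMIs for the 28 other complement genes that reached 10 CPM in a class, grouped by role (rows), over the 16 ranked classes (columns). The C1 proteases and Vtn are brightest in mural-like barcodes, Fcna and C2 in border macrophage-like barcodes, and Clu in astrocyte-like barcodes.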

How the data were processed

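The authors deposited 1 matrix of raw UMI counts for the 3 libraries together. Per the submitters' processing notes and the study's methods, it came from Cell Ranger 3.1.0 (STAR alignment, genome build mm10), which down-sampled reads across libraries when it aggregated them. The authors then used Seurat 3.1.1, and its output was not used here. No strand setting was given in the sources used here. From the counts, UMIs were summed per class and scaled by the class total (CPM). Barcodes needed at least 1000 UMIs and at most 30% mitochondrial UMIs, which left 31982 of 35968. Classes came from 20 marker lists by the gate given above, and doublets were called with Scrublet (scanpy 1.11.5) within each suffix, 4.38%, 5.06% and 5.76% of kept barcodes. They stayed in the main values, and 1 alternative removed them. Of the doublets that Scrublet simulated, 44.7%, 46.34% and 41.75% scored above its threshold in suffixes 1, 2 and 3, so that doublets can remain after this removal. Thinning drew 1000 UMIs per barcode, so that no kept barcode was lost. Differences between strata and likeness over classes used log2(CPM + 10). The differences between microglia-like and all other gated barcodes were log2 ratios of CPM with nothing added. Counting intervals are at 95%, and the limit for a count of 0 is its upper Poisson bound or 3 counts (Serping1 in T cell-like barcodes). The scripts ran in Python 3.11.15 with numpy 2.4.6, scipy 1.17.1 and pandas 2.3.3 and were tested on simulated data. The depth was a median of 6147 UMIs per kept barcode. The 3 samples were grouped by their condition label, and since suffixes carry none, no comparison between conditions was made.

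The members, the marker, tracer and splitting genes and the pathway lists were chosen with earlier results of these data known. Named genes were the members, the listed complement genes, the tracer, splitting and marker genes, and for each member the 3 genes most like it over the classes. Some genes of the lists are not reported here. The microglial and the oligodendrocyte tracer set were each used without 1 gene they were first given, after the data had been seen, with which the ratios of C4b in microglia-like and of C1q in border macrophage-like barcodes were larger. Alternatives changed the barcode filters, the gate, the doublets, the suffixes, the thinning, the tracers and the ratio threshold. RefSeq promoter windows matched 6 of 9 members (not C1qa, C4b and Serping1), and protein sequences were not used here.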

Additional observations from a re-analysis of the deposited data

Results flagged for a closer look

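The 7024 kept barcodes that the gate placed in no class took no part in the comparisons, and all 9 members were found there at more than 3 UMIs and above their level in T cell-like barcodes. These barcodes had a median of 5607.5 UMIs. C1qa stood at 6041 CPM, C1qb at 5410 CPM and C1qc at 3421 CPM. C3ar1 stood at 110 CPM, C5ar1 at 104 CPM and Itgam at 123 CPM, against 5.70, 4.65 and 7.20 CPM in T cell-like barcodes. C4b stood at 40.2 CPM, C3 at 13.8 CPM and Serping1 at 2.42 CPM, against 2.78, 0.825 and 0 CPM in T cell-like barcodes. The makeup of these barcodes was not tested.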

How the results depend on the processing

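C1q stayed highest in microglia-like barcodes under all 14 alternatives, with 3 or 4 members highest there. The highest class was as reported in 13 alternatives for C3ar1, C4b and Serping1, in 11 for Itgam, in 10 for C5ar1 and in 6 for C3. Without suffix 3 the highest C4b level was in oligodendrocyte-like barcodes. Pairs over the free RNA estimate numbered 7 to 9 against 8, except 13 when other marker lists could reach 0.5 of the class's own. Of the 108 alternative values for differences between strata whose pooled interval excluded 0, 16 changed sign, as did 38 of the 90 for differences whose interval included 0. The 16 were C5ar1 by Cst7 (0.11 in suffix 1, 0.44 in suffix 2), and by Serpina3n C1qa (-0.16 without called doublets, -0.0297 in suffix 2, -2.12 in suffix 3), C1qb (-0.092, -0.12 and -2.93 likewise), C1qc (-0.20 without called doublets, -2.59 in suffix 3), Itgam (-0.0535 and -0.68 likewise), C4b (-0.0688 in suffix 3) and Serping1 (-0.0114 in suffix 3). By Klk6, Serping1 changed to -0.0024 in suffix 1 and -0.0152 in suffix 3. The cause was not tested. Leaving doublets out of the strata was chosen after seeing the data. No paired analysis was possible because the matrix carries no condition for its suffixes. Small classes limit the ranking: monocyte-like values rest on 26 barcodes, B cell-like on 24 and ependymal-like on 27, and the free RNA estimate covers microglial and oligodendrocyte RNA only.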

Other observations

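Barcodes left out by the filters also held complement transcripts. The 2862 barcodes with fewer than 1000 UMIs (median 729) held 2907 CPM of C1qa [2834–2981], 69.0 CPM of C4b [58.2–81.3] and 105 CPM of Itgam [91.1–119]. The 1544 barcodes with over 30% mitochondrial UMIs (median 1301) held 523 CPM of C1qa [492–555], 94.1 CPM of C4b [81.5–108] and 18.5 CPM of Itgam [13.1–25.2].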
